A study of Mus musculus with 8 samples.

Results

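Distal intergenic peaks are here the anti-IRF5 peaks that the authors' annotation placed between genes and more than 100 kb from the nearest gene start. The rule took every peak of the 4 library lists on chromosomes 1 to 19, X and Y whose annotation was intergenic and whose signed distance, measured from the peak's centre, exceeded 100 kb in size. It found 787 peaks of 105945, with 144 and 199 in control 1 and 2, and 291 and 153 in CpG 1 and 2. Joining overlapping peaks across libraries gave 55621 merged regions, and 537 of these held a distal intergenic peak. The rule used position alone, so the height, width and recurrence of these peaks are independent of it.

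The series mapped the DNA bound by IRF5 by CUT&Tag, in which an antibody directs the transposase Tn5 to cut beside the target protein and the released fragments are sequenced. All cells were wild-type (wt) mouse macrophages derived from bone marrow, and they had received PBS, called control here, or a stimulation with CpG. Each condition had 2 anti-IRF5 libraries. The age and sex of the mice, the dose and time of CpG, and whether the libraries of a condition came from separate mice or cultures are not stated in the labels, so the spread that p-values rest on may be technical. The cells were assayed in bulk, so binding in fewer cells and weaker binding per cell cannot be told apart.

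IRF5 is an interferon regulatory factor that is activated in myeloid cells downstream of Toll-like receptors and the adaptor MyD88. CpG DNA is a ligand of TLR9, which signals through this adaptor. Macrophage transcription factors bind enhancers as well as promoters, and enhancers that lie far from any gene can act on a promoter by looping of the chromatin. A binding site far from genes therefore cannot be assigned to a gene from its position alone, and the genes named below are neighbours, not known targets.

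The libraries differed in size, and CpG 1 stood apart. The lists held 29226, 37315, 13553 and 25851 peaks in control 1, control 2, CpG 1 and CpG 2, and read totals are not given, so depth is unknown. Promoters of 5 to 8 of 9 named macrophage marker genes carried a peak in each library, whereas none of the B cell, T cell or erythroid markers did (0 of 2, 0 of 2 and 0 of 1 named in the files). Of 4 neutrophil genes Elane had a promoter peak in control 2 alone, and of 2 dendritic cell genes Xcr1 had one in every library. Per their names, both control lists were called against the same IgG library and each CpG list against an IgG library of its condition, but whether these were the same library is not shown. Background and condition therefore cannot be told apart. CpG 1 had the shortest list and yet the most distal intergenic peaks, so the comparisons between conditions and between peak classes, and the counts of clusters, neighbouring genes and chromosomes, are also given without it or without the regions it alone gave.

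Distal intergenic peaks made up 0.493% and 0.533% of all peaks in the control libraries, and 2.15% in CpG 1 against 0.592% in CpG 2. The CpG 1 share was the highest by a wide margin, and the other 3 libraries lay within 0.1 percentage points of each other. The mean share was 0.513% ± 0.0287 (SD, n = 2) in control and 1.37% ± 1.1 (SD, n = 2) in CpG, a difference of 0.856 percentage points with a two-sided exact permutation p of 0.333, the smallest that 6 assignments of 4 libraries allow (0.5 after Benjamini-Hochberg adjustment over 6 tests). The difference was 0.0788 percentage points without CpG 1 and 1.63 without CpG 2. The number of distal peaks averaged 172 ± 38.9 in control and 222 ± 97.6 in CpG (SD, n = 2 each; exact permutation p = 0.667, adjusted 0.8). Without CpG 1 the direction of the number reversed, to a difference of -18.5 peaks, and it was 23, 78 and 120 peaks without control 1, control 2 and CpG 2.

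**Figure D1:**
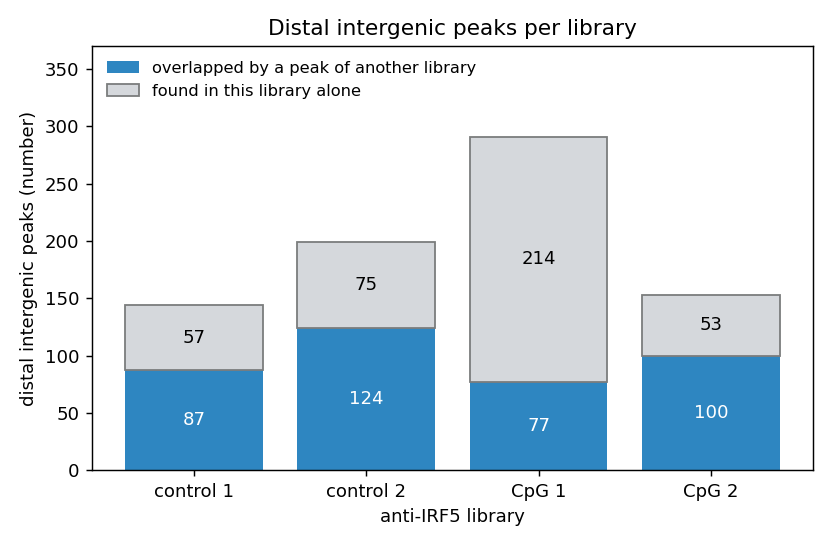
Number of distal intergenic peaks (vertical axis) in each of the 4 anti-IRF5 libraries (bars), split into peaks overlapped by a peak of another library (blue) and peaks found in 1 library alone (grey). CpG 1 had the most distal peaks, 291, and 214 of them were found in no other library.

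The distances themselves were alike in the 4 libraries. The median distance to the nearest gene start was 139, 138, 140 and 135 kb in control 1, control 2, CpG 1 and CpG 2, and the conditions differed by -0.665 kb (exact permutation p = 1). The far end of the range differed more. Peaks more than 200 kb from a gene start numbered 21, 22, 66 and 10, and peaks more than 300 kb away numbered 5, 2, 20 and 0 in the same order. The farthest lay 446, 408, 586 and 287 kb from a gene start. Distal peaks lay on either side of the named gene, with 52.1%, 55.8%, 45.0% and 52.3% upstream of it.

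The distance was measured to gene starts, and genes have ends as well. Of the 537 regions 150 (27.9%) lay within 100 kb of the body of a gene named in the lists, 19 of them within 10 kb. Only 2 regions overlapped a body, that of Pde4b, a phosphodiesterase that breaks down cAMP, and that of the predicted gene Gm36723. The median distance to the nearest gene body was 122 kb. The threshold was not a natural break: 46, 60, 52 and 52 intergenic peaks of control 1, control 2, CpG 1 and CpG 2 lay 90 to 100 kb from a gene start, and 24, 30, 38 and 33 lay 100 to 110 kb away. In CpG 1 the peak just inside lay 100350 bp from Atp2b1 with a fold enrichment of 5.19, and the peak just outside lay 99917 bp from Gm30691 with a fold enrichment of 3.67.

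Distal peaks were narrower than other intergenic peaks in every library, though hardly so in control 2. The median width was 240 against 277 bp in control 1, 335 against 338 bp in control 2, 150 against 195 bp in CpG 1 and 279 against 317 bp in CpG 2. The mean difference was -30.9 ± 18.9 bp (SD, n = 4 libraries), with a two-sided exact permutation p over sign changes of 0.125, the smallest that 4 libraries allow (adjusted 0.5). Without CpG 1 the mean difference was -26.2 bp. The difference did not pass the threshold of 0.05, which this design cannot reach.

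Peak strength is given as fold enrichment, the deposited ratio of signal to local background, and it was ranked within each list because lists of different size are not comparable by value. The median percentile of distal peaks was 45.5 and 55.9 in the control libraries and 40.6 and 52.0 in CpG 1 and CpG 2. Other intergenic peaks had medians of 51.7, 53.7, 53.0 and 54.8. Distal peaks ranked below other intergenic peaks in 3 of 4 libraries, and above them in control 2, by a mean of -4.83 ± 6.08 percentile points (SD, n = 4; exact permutation p = 0.25, adjusted 0.5). Without CpG 1 the mean was -2.33 points. Strong distal peaks did occur: 12, 20, 16 and 17 of them were among the top 10% of their list, which is 8.33%, 10.1%, 5.5% and 11.1% of the distal peaks.

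Low pileups were more common in distal than in other intergenic peaks of the same library. With depth unknown, pileups of different libraries are not comparable. The pileup, the height of the signal at the summit, had a median of 13, 17, 12 and 14 in distal peaks of control 1, control 2, CpG 1 and CpG 2, against 15, 17, 15 and 16 in other intergenic peaks. A pileup of 12 or less was found for 42.4%, 27.1%, 57.7% and 36.6% of distal peaks, against 32%, 22.9%, 31% and 28% of other intergenic peaks. The largest gap between the classes was that of CpG 1. There the commonest pileup was 10, in 43 of the 291 distal peaks.

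**Figure D2:**
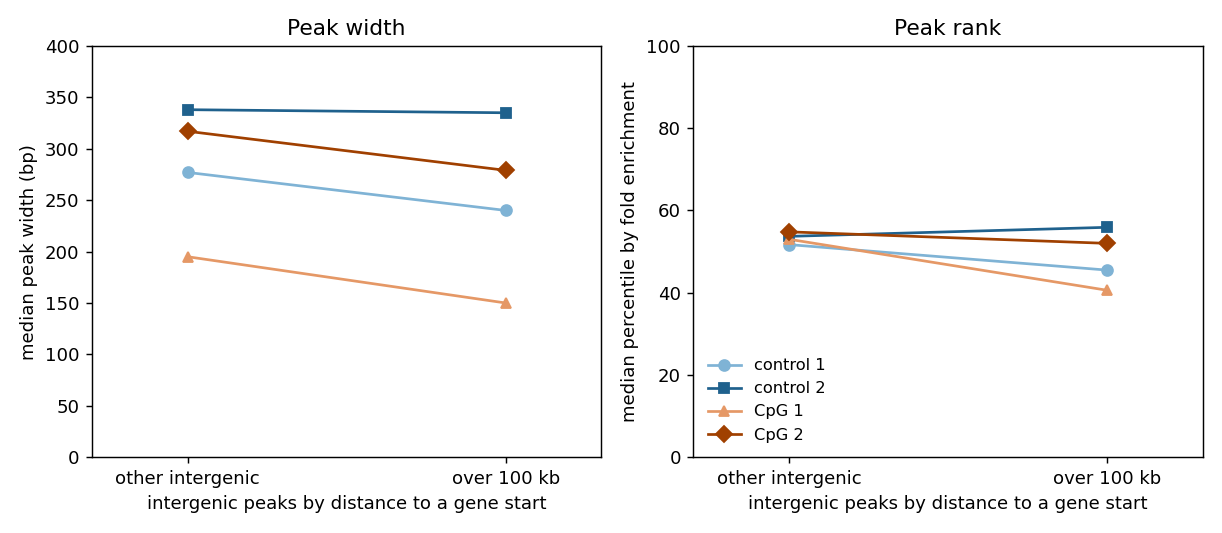
Median peak width in bp (left) and median percentile by fold enrichment within the library's own list (right) for other intergenic peaks and for those over 100 kb from a gene start, with 1 line per library. The width of distal peaks ran from 150 bp in CpG 1 to 335 bp in control 2, and the lines for CpG 1 fall the most in both plots.

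Distal peaks recurred in another library about as often as other intergenic peaks in control 2 and at lower shares in the rest. In control 1 87 of 144 distal peaks (60.4%), in control 2 124 of 199 (62.3%), in CpG 1 77 of 291 (26.5%) and in CpG 2 100 of 153 (65.4%) overlapped a peak of another library by at least 1 bp. Other intergenic peaks did so at 70.3%, 62.3%, 62.8% and 78.7%, and promoter peaks at 81.9%, 74.1%, 86.7% and 86.1%. The mean difference between distal and other intergenic peaks was -14.9 ± 15.4 percentage points (SD, n = 4; exact permutation p = 0.25, adjusted 0.5). It was -10.1 points without CpG 1, whose own difference was -36.3 points.

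The recurrence of CpG 1 peaks fell with distance from genes. In bands of 0 to 10, 10 to 25, 25 to 50, 50 to 100, 100 to 150, 150 to 200 and over 200 kb, 68.7%, 63.4%, 61.4%, 44.2%, 28.8%, 36.4% and 12.1% of its intergenic peaks were found in another library. The other 3 libraries stayed between 52.4% and 80.0% in all bands. The number of CpG 1 peaks relative to CpG 2 moved the opposite way, from 0.549 in the nearest band to 6.6 over 200 kb, where CpG 1 had 66 peaks and CpG 2 had 10.

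**Figure D3:**
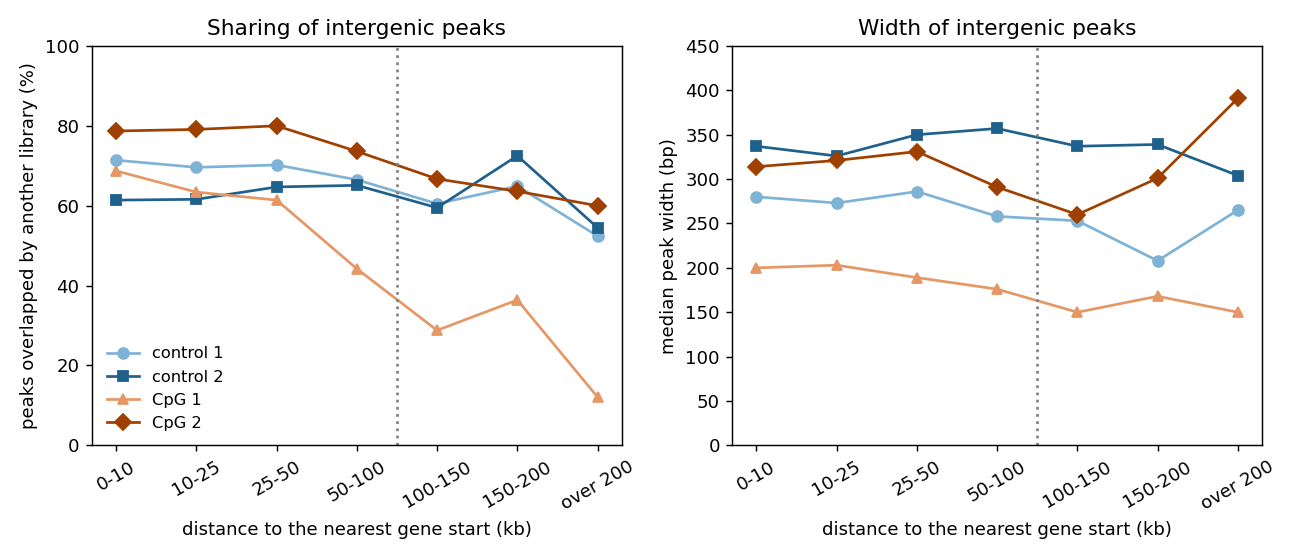
Intergenic peaks by distance to the nearest gene start in kb (horizontal axis; the dotted line marks 100 kb), with the percentage overlapped by a peak of another library (left) and the median peak width in bp (right), 1 line per library. Recurrence in CpG 1 fell from 68.7% to 12.1%, while the other libraries stayed above 52%.

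Peaks found in 1 library alone were weaker than shared ones in every library. Distal peaks of 1 library alone numbered 57, 75, 214 and 53 in control 1, control 2, CpG 1 and CpG 2. Their median width was 180, 230, 150 and 184 bp, against 288, 454, 237 and 369 bp for shared distal peaks. Median percentiles by fold enrichment were 35.8, 47.2, 40.6 and 37.5 for single-library peaks and 50.6, 67.1, 60.5 and 61.7 for shared ones. The median −log10 q was 3.63 for the 214 peaks of CpG 1 alone and 5.27 to 6.48 for those of the other libraries. The CpG 1 peaks lay on all 21 chromosomes, against 18, 17 and 16 chromosomes for the single-library peaks of control 1, control 2 and CpG 2. They were also the most numerous, and more peaks can reach more chromosomes by number alone.

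A smaller share of distal regions than of regions at large was called in several libraries. Of the 537 distal regions, 33 (6.15%) were called in all 4 libraries, against 10.1% of all 55621 regions. At least 3 libraries shared 69 (12.8%, against 25.4%), and at least 2 shared 138 (25.7%), against 44.1% of all regions and 41.9% of other intergenic regions. The other 399 (74.3%, against 55.9%) were called in 1 library. CpG 1 alone gave 214 of these (39.9% of distal regions, against 7.54% of all), and control 1, control 2 and CpG 2 gave 57 (10.6%, against 14.8%), 75 (14.0%, against 24.1%) and 53 (9.87%, against 9.49%). The 2 libraries with the longest list of each condition, control 2 and CpG 2, shared 25 regions with no other library (4.66%, against 6.31%), and 16 regions (2.98%, against 12.2%) were missing from CpG 1 alone. When CpG 1 was left out, 49 of 323 distal regions (15.2%) were called in all 3 remaining libraries, against 22.5% of other intergenic regions and 24% of all, and 116 (35.9%) were called in at least 2, against 43.7% and 45%.

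Few distal regions separated the conditions. Only 5 regions (0.931%) were called in both CpG libraries and in neither control library, against 1.15% of all regions. The opposite pattern, both control libraries and neither CpG library, held for 19 regions (3.54%), against 8.7% of all regions. The CpG-only share lay near that of all regions, and the control-only share lay below that of all regions. The 214 regions of CpG 1 alone, 39.9% of distal regions against 7.54% of all, can show neither pattern and so lower both distal shares. Shares without these regions are not given here. Leaving out a library loosens the rule to the libraries that remain, so higher counts follow and do not measure stability. CpG-only regions then numbered 58 without CpG 1, 219 without CpG 2 and 20 without control 2. Control-only regions numbered 94, 77, 23 and 35 without control 1, control 2, CpG 1 and CpG 2. Shares of all regions are not given for these counts, so they do not show whether distal regions differ from others. With lists cut to equal length the order of the patterns turned, to 8 CpG-only and 4 control-only regions.

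Regions called in all 4 libraries showed what a recurrent distal peak looks like. Their median width was 382, 606, 301 and 575 bp and their median percentile by fold enrichment 66.1, 80.7, 71.4 and 77.8 in control 1, control 2, CpG 1 and CpG 2. The 10 with the highest lowest percentile include regions near Arhgap12, Pde4b, Cd47 (3 regions), Maf, Etnk1, St3gal1 and Dusp10. Names give the nearest protein-coding gene start, except that Insl5 (402 kb) and 1700056E22Rik (140 kb) had closer starts than Pde4b (537 kb) and Dusp10 (161 kb). Positions are printed as deposited, on an unnamed mouse build.

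The top region lay at chr18:5802244-5804334, 142 kb upstream of the predicted gene Gm34804 and 333 kb from Arhgap12, which encodes a GTPase-activating protein. Its fold enrichment was 10.7 and 37.9 in the control libraries and 8.17 and 29.4 in CpG 1 and CpG 2. These values stood at percentiles 93.5, 99.5, 92.4 and 99.3 of the 4 lists, so it was among the strongest 10% of peaks in every library. A second region 138 kb from Gm34804, at chr18:5805732-5807636, was also called 4 times, at percentiles 14.2, 71.7, 75.7 and 81.8.

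The next lay at chr4:102480920-102482630, 112 kb upstream of Gm24869 and 17.3 kb beyond the body of Pde4b. Its fold enrichment was 10.1 and 20.4 in the control libraries and 13 and 24.2 in the CpG libraries, at percentiles 92.2, 97.4, 99.3 and 98.6. It was the second strongest distal peak of CpG 1. A neighbour at chr4:102464996-102465890, 0.987 kb from the body of Pde4b, was called in all 4 libraries at percentiles of 35.9 to 81.0.

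A region at chr8:116149407-116150951 lay 284 kb from the start of Maf, a transcription factor of macrophage differentiation, and 70.7 kb from the body of Wwox. Its fold enrichment was 7.37, 23.7, 7.35 and 11.1 in control 1, control 2, CpG 1 and CpG 2, at percentiles of 76.6 to 98.3. Its peak in control 2 was among the strongest 10% of that list.

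The region at chr15:67585888-67587038 lay 159 kb upstream of Gm49408 and 538 kb from St3gal1, a sialyltransferase. It had the highest fold enrichment of any distal peak in CpG 2, 30.1, and stood at percentiles 68.7, 94.4, 71.4 and 99.4 of the 4 lists. In control 2 and CpG 2 it was thus among the strongest 10% of peaks. The regions at chr6:143294767-143295476, 182 kb from the ethanolamine kinase gene Etnk1, and at chr1:183906414-183906940, 161 kb from Dusp10, a phosphatase that acts on stress-activated MAP kinases, had fold enrichments of 7.8, 9.93, 12.5 and 7.95, and of 7.06, 7.36, 6 and 6.48.

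**Figure D4:**
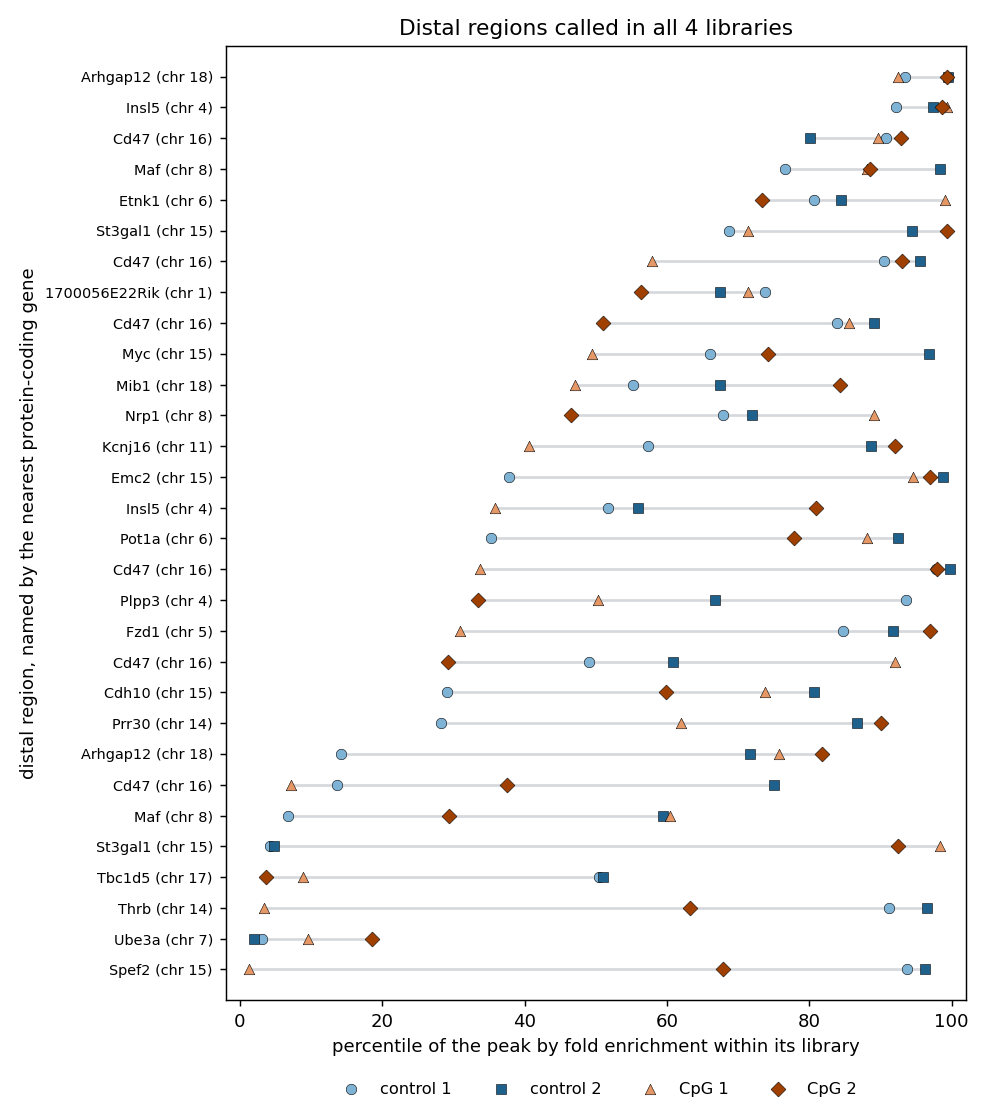
Of the 33 distal regions called in all 4 libraries, those reported here (rows, named by the nearest protein-coding gene and the chromosome, ordered by their lowest value), with the percentile of each library's peak by fold enrichment within its own list on the horizontal axis. Markers stand for libraries and grey lines span the 4 values; the Arhgap12 region is above percentile 92 in all of them, and the Spef2 region runs from 1.27 to 96.2.

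Some distal regions lay in clusters. Joining regions at most 50 kb apart and keeping groups of at least 5 gave 18 clusters with 153 regions, 28.5% of the 537. The same rule placed 55.1% of the 16324 other intergenic regions and 82% of all regions in groups, so the 3 shares rose with the number of regions that entered the rule. Of the clustered regions 64 (41.8%) were called in at least 2 libraries, against 74 of the other 384 (19.3%), and 17 of the 33 regions called in all 4 libraries were in clusters. Without the 214 regions of CpG 1 alone, 64 of 132 clustered regions (48.5%) were called in at least 2 libraries, against 74 of 191 others (38.7%). Clusters held 43.9%, 45.5% and 40.4% of the distal regions of control 1, control 2 and CpG 2 and 19.4% of those of CpG 1. Of the regions found in CpG 1 alone, 9.81% were in clusters, against 33.3%, 44% and 30.2% of those found in control 1, control 2 or CpG 2 alone.

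The Cd47 cluster held the most recurrent regions. Cd47 encodes a surface protein that restrains phagocytosis by binding SIRP alpha on macrophages. Over 70.5 kb at chr16:49750216-49820683, starting past the end of the gene, lay 16 regions. Of these 11, 14, 8 and 8 were called in control 1, control 2, CpG 1 and CpG 2, and 6 were called in all 4 libraries. The widest distal peak of the series lay here: at chr16:49790109-49793050, 171 kb from the start of Cd47, the control 2 peak spanned 2942 bp. Its fold enrichment was 14.4 and 45.6 in the control libraries and 4.57 and 21.3 in CpG 1 and CpG 2, with pileups of 62, 162, 31 and 95. It stood at percentile 97.8 or above in 3 libraries and at 33.7 in CpG 1. Regions 139, 165 and 199 kb from the start had fold enrichments of 9.66, 8.94, 7.67 and 13.3, of 8.22, 11.4, 7 and 6.2, and of 9.6, 16.7, 5.34 and 13.4 in the same order of libraries.

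Clusters also lay beside genes of macrophage transcription factors, Maf and Klf4 among them. Near Maf, 9 regions spanned 39.3 kb at chr8:116117108-116156400. Of these 5, 7, 4 and 6 were called in control 1, control 2, CpG 1 and CpG 2, and 6 were called in at least 2 libraries.

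Near Klf4, a zinc-finger factor of monocyte differentiation, 15 regions spanned 108 kb at chr4:55730584-55838785, 252 kb from the gene. In the same order of libraries 7, 10, 6 and 3 of them were called. Of these 15 regions 9 were called in at least 2 libraries and 0 in all 4. The strongest lay at chr4:55797440-55798447, at percentiles 94.6 and 85.3 in the control libraries and 68.6 in CpG 2, and CpG 1 had no peak there. The Klf4 cluster thus had fewest called regions in CpG 2 and the Maf cluster in CpG 1.

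Near Myc, which encodes a transcription factor of cell growth, 8 regions spanned 19.4 kb at chr15:62254088-62273442, 407 kb from the gene start. In the same order of libraries 3, 8, 1 and 5 of them were called. The region called in all 4 libraries, chr15:62264003-62265138, lay 14.6 kb from the body of the non-coding gene Pvt1 and had fold enrichments of 6.54, 18.9, 5.08 and 7.97. A neighbour at chr15:62261072-62261965 had 5.2, 19.5 and 6.92 in control 1, control 2 and CpG 2. In control 2 they stood at percentiles 96.8 and 97, and in the other libraries that had them between 37.8 and 74.2.

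The cluster with most regions had none that was called in all 4 libraries. Between Hrh1, the histamine H1 receptor gene, and Atg7, which encodes an enzyme of autophagy, 20 regions spanned 39.3 kb at chr6:114476284-114515606. The control libraries had 13 and 7 of these regions called, CpG 1 had 1 and CpG 2 had 6, and 7 regions were called in at least 2 libraries. The strongest region called in both control libraries, chr6:114490269-114490769, had fold enrichments of 7.4 and 6.24, and no CpG library had a peak there. Called regions were fewer in the CpG libraries, but control 2 and CpG 2 differed by only 1 region.

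**Figure D5:**
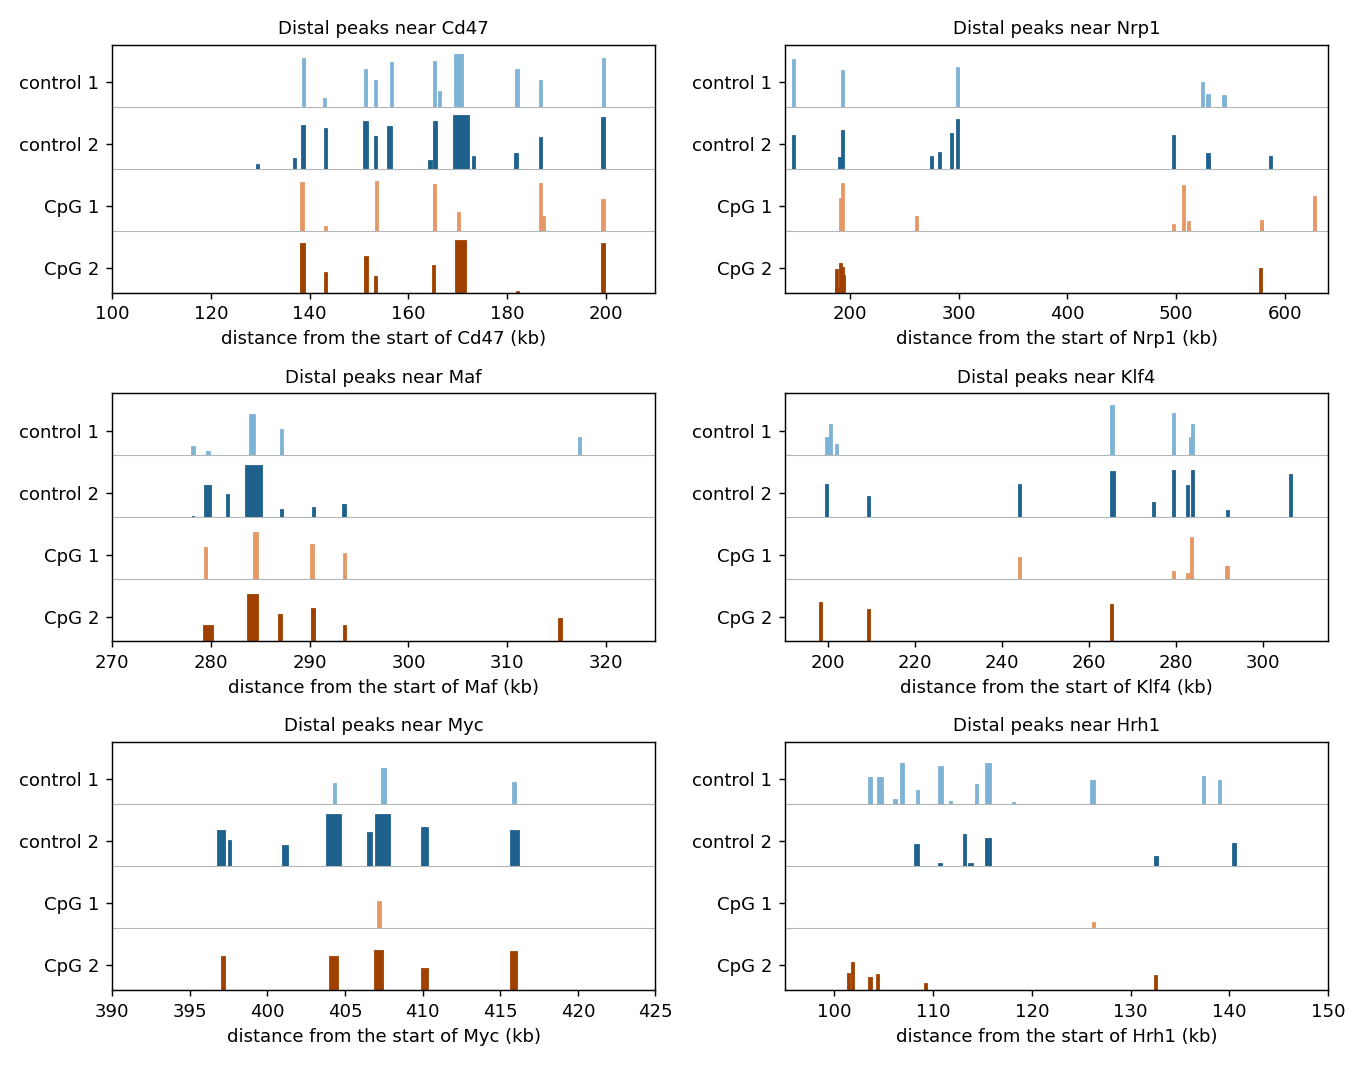
Distal peaks near Cd47, Nrp1, Maf, Klf4, Myc and Hrh1, with the distance from the gene's start in kb on the horizontal axis and 1 track per library. Each bar is a region's peak, drawn at its width (narrow peaks are widened to stay visible), and its height is the percentile by fold enrichment within the library's own list; 6 of the 16 regions of the Cd47 cluster have a bar in all 4 tracks, and the Hrh1 cluster has 1 low bar in CpG 1.

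Measured to gene starts, Nrp1, a co-receptor for semaphorins and VEGF, was the nearest protein-coding gene of more distal regions than any other gene, 22 of the 537. They lay in groups of 11, 5 and 5 regions, apart from the single region chr8:129232393-129232675. Of the 22 regions 7 were called in at least 2 libraries. The group farthest from Nrp1, chr8:128457895-128587770, held 11 regions 562 kb from it. Of these 3, 4, 6 and 1 were called in control 1, control 2, CpG 1 and CpG 2. The body of Pard3 lay closer to regions of this group. It was 169 kb from chr8:128507190-128507625 and 249 kb from chr8:128587475-128587770, whose distances to the start of Nrp1 were 578 and 497 kb. A tight group of 5 regions within 6.36 kb, chr8:128891643-128898003, lay 190 kb from Nrp1, with 1, 2, 2 and 5 of them called. Its region at chr8:128892671-128892907 was called in all 4 libraries with fold enrichments of 6.62, 7.81, 7.5 and 5.89. Cd47 was nearest for 16 regions, Klf4 and Hrh1 for 15 each and St3gal1 for 13.

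The authors' nearest genes were mostly of other kinds. Among the 8 named for most distal regions were Hrh1 (15 regions), an annotation named 5S_rRNA (11), Gm8824 (10), Mir21c (10), 4930488N15Rik (9), Gm12519 (8) and Gm12506 (7, a number shared by 4 further genes). By gene type in the RefSeq table, matched on symbol, the nearest gene was protein-coding for 101 regions (18.8%), a pseudogene for 117 (21.8%), a long non-coding RNA for 94 (17.5%) and a small RNA for 37 (6.89%), and 188 (35%) had no match. Without the regions of CpG 1 alone the shares were 21.7%, 19.8%, 21.1%, 8.36% and 29.1% in the same order. Counted by peak, 20.6% of distal peaks had a protein-coding nearest gene, against 44.9% of other intergenic peaks. The median distance to a protein-coding start was 332 kb for all distal regions, 269 kb without those of CpG 1 alone, 245 kb for those called in at least 2 libraries and 603 kb for those of CpG 1 alone. Of 82 regions more than 1000 kb from a protein-coding start, 67 were found in CpG 1 alone.

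Gene lists were read against the share of all protein-coding genes. A gene counted when it was 1 of the 2 nearest protein-coding genes of a distal region, among the genes that the lists name, and 479 of 11335 did so (4.23%), 140 (1.24%) for regions called in at least 2 libraries, and 264 (2.33%) without the regions of CpG 1 alone. Of 32 macrophage identity and transcription factor genes 5 counted (15.6%), the same number without the regions of CpG 1 alone, and 4 of them (12.5%) for regions in at least 2 libraries. Among these 4 were Klf4 with 15 regions 198 to 306 kb away, Maf with 9 at 278 to 317 kb, and Runx1, a factor of blood cell development, with 2 at 381 to 385 kb. Id2, an inhibitor of DNA binding by helix-loop-helix factors, counted through 2 regions, each found in 1 library.

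The other lists gave few neighbours. None of 8 IRF family genes and none of 32 cytokine and chemokine genes counted, and of 23 interferon-stimulated genes only Ifih1, a sensor of double-stranded RNA, did, through a region of CpG 1 alone that lay 1185 kb away. Of 26 immediate early genes 3 counted (11.5%): Myc as above, and the nuclear receptor gene Nr4a2 and the G protein regulator gene Rgs1 through regions of CpG 1 alone, without which 1 of 26 (3.85%) counted. Of 76 genes of the neuronal families, chosen by the start of their symbol, 7 counted (9.21%), and for 5 of these, which include the endothelial cadherin gene Cdh5, the regions were found in CpG 1 alone, which left 2 of 76 (2.63%). None of 70 olfactory, vomeronasal and taste receptor genes counted. No gene of the macrophage, IRF or cytokine lists was the authors' nearest gene of any distal peak.

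The 5 regions of both CpG libraries were small. The strongest lay at chr15:50264623-50265022, 115 kb downstream of Gm49198 and 489 kb from Trps1, a GATA-type repressor, with fold enrichments of 8.21 in CpG 1 and 8.48 in CpG 2. Next was chr4:72297783-72298090, 179 kb from Tle1, a co-repressor of the Groucho family, with 7.45 and 6.54. Control 2 had a peak that ended just before it, chr4:72297118-72297626, with 8.09 at percentile 74.2. The CpG-only call there therefore hung on the edges of peaks. The other 3 CpG-only regions were chr1:7911475-7911945 with 5.34 and 6.36, chr8:128507190-128507625 with 4 and 5.83, and chr11:110583570-110583800 with 4.34 and 3.99. The last of these lay 275 kb from the potassium channel gene Kcnj16. The strongest of the 5 was at percentiles 92.8 and 77.8 of its lists, and the chr11 region at 28.5 and 8.61. In the chr8 region the peaks met only at their edges, 128507190-128507338 in CpG 1 and 128507332-128507625 in CpG 2.

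Among the 19 regions of both control libraries, the strongest was chr1:152386751-152387272, 104 kb upstream of Btf3-ps14 and 0.565 kb from the body of Colgalt2, a collagen-modifying enzyme, with values of 12.6 and 10.6. A region inside the Cd47 cluster, chr16:49776802-49777624, had 8.04 and 8.94. Near Nrp1, chr8:128786080-128787059 had 7.04 and 12.9, and chr8:129232393-129232675, 2.69 kb from the gene's body, had 9.05 and 6.95. In the latter the peaks met only at their edges, 129232527-129232675 in control 1 and 129232393-129232537 in control 2. The region at chr15:67285801-67286699, 238 kb from St3gal1, had 6.6 and 6.62.

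Another of the 6 strongest control-only regions was also the distal region farthest from a gene start among those in at least 2 libraries. It lay at chr11:39096537-39096736, 408 kb upstream of an annotation named U6, with fold enrichments of 13.8 and 8.1 and pileups of 48 and 28. It was 200 bp wide. The next farthest were chr15:67385687-67386195 at 287 kb, with 8.55, 11.9 and 8.66 in control 1, control 2 and CpG 2, and chr8:128587475-128587770 at 263 kb, with 6.95 in control 2 and 3.67 in CpG 1. Those at 255 and 246 kb were called in all 4 libraries and are described next.

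Ranks from lists of different length cannot show whether binding changed between conditions. Over all peaks in regions called in all 4 libraries the median percentile was already 69.4, 81, 53 and 77 in control 1, control 2, CpG 1 and CpG 2. Over every distal peak in such regions it was 57.3, 80.4, 68.8 and 77.8 in the same order. The ranks of single regions are therefore given as a description. Depth is unknown, so pileups of different libraries are not comparable either. The region beyond Pde4b described above stood at percentiles 92.2 and 97.4 in control and 99.3 and 98.6 in CpG, with pileups of 52, 72, 51 and 74. The region at chr18:5805732-5807636 had pileups of 21, 39, 36 and 37. Pileups overlapped between the conditions in both regions.

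The widest spread of ranks between conditions was at chr15:67353387-67353921, 255 kb downstream of 1700012I11Rik and 305 kb from St3gal1. Its percentiles were 4.26 and 4.85 in the control libraries and 98.3 and 92.5 in the CpG libraries, and its pileups 41, 41, 44 and 37. The local background implied by pileup and fold enrichment, and so not a measure apart from them, was 11 and 10.3 in control and 3.13 and 1.92 in CpG.

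At chr14:5054808-5056107, 246 kb upstream of the thyroid hormone receptor gene Thrb, the percentiles were 91.2 and 96.6 in control and 3.34 and 63.2 in CpG, and the pileups 24, 49, 17 and 45. The implied background was 1.54 and 1.7 in control and 5 and 5.66 in CpG. Near Spef2, a gene of the sperm flagellum, chr15:9864654-9865217 had percentiles of 93.7, 96.2, 1.27 and 67.9, pileups of 28, 37, 27 and 25 and an implied background of 1.69, 1.13, 9.98 and 2.51. Pileups overlapped between the conditions at Thrb, and at Spef2 both control pileups were above both CpG pileups. The part of the IgG library in these values was not tested.

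The tallest distal peak was of low rank. At chr12:93543765-93544000, 132 kb upstream of 4930559C10Rik, the pileup was 449 in control 1, 331 in control 2 and 441 in CpG 2, with no peak in CpG 1. The fold enrichments were 4.25, 3.09 and 4.08, at percentiles 14.1, 1.15 and 9.41. The implied background there was 105, 107 and 107, against medians of 1.47, 1.64 and 1.26 over the distal peaks of the same libraries. Among the 3 strongest distal peaks of each library, those found in 1 library alone were chr13:75490123-75490491 in control 1, at 15.1, and chr10:98641079-98641212 in CpG 1, at 13.4 with a width of 134 bp. The third strongest of control 2 lay at chr15:43487512-43488664, 147 kb from Emc2, a subunit gene of a membrane protein insertase, with fold enrichments of 5.2, 26.8, 8.67 and 18.2 in control 1, control 2, CpG 1 and CpG 2.

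Distal regions were unevenly spread over chromosomes. Chromosome 15 held 57 of the 537 (10.6%), against 4.32% of all merged regions, and 27 of them were called in at least 2 libraries. Chromosome 16 held 42 (7.82% against 3.54%), chromosome 4 held 55 (10.2% against 5.99%) and chromosome 8 held 47 (8.75% against 5.26%). Chromosomes 5, 7 and 9 held 9 each, 1.68% against 6.06%, 6.47% and 5.19% of all regions. Without regions of CpG 1 alone, chromosomes 15, 16, 4 and 8 held 14.9%, 7.74%, 11.1% and 10.8% of 323 distal regions, against 4.32%, 3.51%, 5.99% and 5.2% of all, and chromosomes 5, 7 and 9 held 0.929%, 1.24% and 1.55%. The clusters near Cd47, Klf4, Maf, Nrp1 and Myc lie on the chromosomes with the higher shares.

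The authors' lists of whole conditions held fewer distal peaks. The control list had 134 of 28465 peaks (0.471%) and the CpG list 96 of 15249 (0.63%). Of the 134 distal peaks of the control list, 86 overlapped a peak of control 1, 122 one of control 2 and 74 both. Of the 96 of the CpG list, 65 overlapped a peak of CpG 1, 81 one of CpG 2 and 51 both. Read from the libraries, 61.8%, 60.8% and 51.6% of the distal peaks of control 1, control 2 and CpG 2 overlapped the list of their own condition, and 23.0% of those of CpG 1. Merged across both lists, 63 of 164 distal regions (38.4%) were in both, against 39.4% of other intergenic regions and 37.2% of all.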

How the data were processed

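The 4 library lists and 2 lists of whole conditions hold annotated peaks. The submitters' processing notes name MACS2 2.1.0, ChIPseeker, BWA 0.7.12 and fastp 0.20.0. Neither the labels nor the headers name a genome build. The deposited pileup is the signal at the summit and was a whole number for 100% of peaks in the library lists. The deposited fold enrichment is a ratio of pileup to local background, and the authors also gave the −log10 p-value and −log10 q-value. The lowest −log10 p was 5.00 to 5.02. IgG libraries were not analysed here.

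Lines that continued an overlong annotation cell (875, 1017, 281 and 682) and peaks on other contigs (15, 17, 13 and 16) were left out. Percentiles by fold enrichment were computed within each list. Peaks overlapping by at least 1 bp were merged, a region was distal when at least 1 of its peaks was, and a library with several peaks in a region was given its strongest. The implied background is (pileup + 1) / fold enrichment - 1. Gene positions came from the nearest-gene column of all 6 lists, so a gene that is nearest to no peak is missing. Of 21295 genes 16324 matched a RefSeq symbol (GRCm38.p6), used for gene type alone.

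Conditions were compared by two-sided exact permutation over 6 assignments of the libraries, and peak classes over 16 sign changes, in Python 3.11.15. Named were the 10 regions of all 4 libraries with the highest lowest percentile, the 6 strongest of each condition, the 5 farthest, the 8 commonest nearest genes, the 3 strongest peaks per library and those at the threshold; other regions and all clusters were chosen after their values were seen. One locus is not reported here. The members and lists were chosen with earlier results of these data known. Motifs and base composition could not be computed without a genome of the lists' build. Counting was tested on simulated lists, with 0 of 30 counts wrong.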

Additional observations from a re-analysis of the deposited data

How the results depend on the processing

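Of 98 values under other settings, 73 kept their direction and, where tested, their side of the threshold (counts of regions within 1.5 times), 19 moved and 6 reversed. No p-value could pass the threshold in this design. Values with the replicate number as a block, given below, were among the 73 and could not change direction. Over 50 kb in place of 100 kb, the CpG minus control difference was -2.5 peaks and 3.1 kb in median distance, and CpG-only, control-only and all-library regions numbered 32, 88 and 154. Over 200 kb, the difference in median distance was 14.8 kb, the rank difference between distal and other intergenic peaks was 2.2 points, and the region numbers were 0, 4 and 4. With lists cut to 13553 peaks they were 8, 4 and 14. Shares of all regions are not given for these region numbers. CpG-only regions numbered 3 with a −log10 q of at least 3, and 3 with an overlap of at least 50% of the shorter peak. By the authors' condition lists, 30 of 164 distal regions were CpG-only and 71 control-only, against 2637 and 16825 of all 31003 regions. There the CpG-only share was above that of all regions and the control-only share below it. The cause of these changes was not tested, beyond fewer or more peaks entering.

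Leaving out each library in turn gave differences of -18.5 to 120 in peak number, 0.0788 to 1.63 percentage points in share, -2.98 to 1.65 kb in median distance, -7.16 to -2.33 points in rank, -40.2 to -26.2 bp in width and -17.6 to -10.1 points in recurrence. Each omission loosened the rule for patterns of regions, and CpG-only regions numbered 6 to 219, control-only regions 23 to 94 and all-library regions 34 to 49. The median distance turned without CpG 2 and the number without CpG 1.

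With the replicate number as a block the differences could not change, because each number held 1 library of each condition. They were 50.5 peaks (exact p = 1), 0.856 points (p = 0.5), -0.665 kb (p = 1), -4.83 points, -30.9 bp and -14.9 points (p = 0.5 each, exact, the smallest possible). Whether same-numbered libraries share more than a number is not stated in the labels. Their deviations correlated at 0.0353 over 55621 regions, which cannot decide it with 2 libraries per condition. Recurrence measured against the authors' list of the own condition, chosen after seeing the data, differed by -13.3 points (exact p = 0.125). With depth unknown and 2 libraries per condition, a difference between conditions was not detectable.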
